A study of Mus musculus with 32 samples.

Results

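The genes of the mitochondrial ribosome that carry an Mrpl or Mrps symbol were followed through hematopoiesis and aging. The genes were taken from the raw count table by symbol, as those beginning with Mrpl or Mrps and a number, with pseudogene symbols (containing -ps) left out. The rule found 77 of 24421 genes (48 Mrpl, 29 Mrps), and all 77 passed the filter on low counts that left 14154 genes for testing. The study profiled RNA of 8 bone marrow fractions of female C57BL/6 mice aged 10 weeks (Young) or 20 months (Aged), with 2 libraries in each of the 16 groups and 32 in all. All fractions were lineage negative (Lin-). Hematopoietic stem cells (HSCs) and 4 kinds of multipotent progenitor (MPP) were Sca-1+ c-kit+. HSCs were CD34- and also CD150+, CD48- and Flt3-, and MPPs were CD34+. Of these, MPP1 were CD150+ CD48- Flt3-, MPP2 CD150+ CD48+ Flt3-, MPP3 CD150- CD48+ Flt3- and MPP4 CD150- CD48+ Flt3+. Granulocyte-macrophage progenitors (GMPs) were Sca-1- c-kit+ FcgR+ CD34+, megakaryocyte-erythrocyte progenitors (MEPs) Sca-1- c-kit+ FcgR- CD34-, and common lymphoid progenitors (CLPs) Sca-1 low c-kit low. CLPs were gated IL-7+ and the other 7 fractions IL-7-, as the labels spell the receptor gate. The study describes marrow pooled within each age before duplicate sorts, and elsewhere speaks of biological duplicates, so errors and p-values measure the spread between these libraries, which may be technical. With sorted bulk samples, fewer cells of a type and less RNA per cell cannot be told apart.

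The mitochondrial ribosome translates the mRNAs of the mitochondrial genome, which encode core subunits of the respiratory chain complexes and of ATP synthase. Its rRNAs are transcribed in the organelle, whereas all of its proteins are encoded in the nucleus, made in the cytosol and imported. Some of these proteins descend from bacterial ribosomal proteins and others were added during the evolution of mitochondria. HSCs are known for low mitochondrial activity, and their progeny turn to oxidative phosphorylation as they begin to divide and differentiate. The count table held 0 genes of the mitochondrial genome, so only the nuclear side of the machine could be read.

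Of the 77 genes, 50 code for proteins of the large subunit and 26 for proteins of the small subunit. The one left over is Mrps36, whose product has since been assigned to the oxoglutarate dehydrogenase complex and which was kept because the rule is by symbol. The names do not always give the subunit, since the products of Mrps30 and Mrps18a lie in the large subunit. Among the large subunit proteins 30 have a bacterial counterpart and 20 do not, and among the small subunit proteins the numbers are 16 and 10. The genes lie on 17 chromosomes (GENCODE M21 annotation of GRCm38), so they are not a genomic cluster. Exons of 24 of them overlap exons of another annotated gene (21 on the opposite strand and 4 on the same strand, 1 with both), and because no use of strand was stated for the counts, these genes are less certain. They include Mrpl18 (with Tcp1), Mrpl19 (Gcfc2), Mrpl44 (Wdfy1), Mrpl47 (Actl6a and Ndufb5), Mrpl51 (Mir3098), Mrps6 (Slc5a3), Mrps25 (Nr2c2) and Mrps26 among the genes named here.

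Total counts per library were between 11237384 and 17723245. Genes of the sort antigens followed the gates in part. Slamf1 (CD150) stood at 56.5 to 80.4 in HSCs and at most 0.481 in MPP4, and Cd48 at most 2.27 in HSCs. Cd34 was at most 0.623 in MEPs, Fcgr3 386 to 415 in GMPs and Il7r 150.7 to 185.5 in CLPs (sort genes and marker sums are given as plain CPM, counts scaled to the library total alone). Some genes were also read in fractions gated negative, at levels below the fractions gated positive. Cd34 had 187.6 to 225.8 in HSCs, Flt3 172.2 to 314.6 in MPP3 and Il7r 9.54 and 16.08 in young MEPs. Markers of other cells also moved with age. The summed plain CPM of 4 erythroblast markers was 628 and 728 in young against 156 and 158 in aged MPP2, and 673 and 785 against 160 and 143 in MPP3. The sum of 4 neutrophil markers was 758 and 791 in young against 114 and 176 in aged MPP3, and 358 and 369 against 85.2 and 52.7 in CLPs. Markers of basophils, mast cells and eosinophils (5 genes) summed to 2139 and 2154 CPM in young against 296 and 110.3 in aged CLPs, and to 1759 and 1692 against 2751 and 3842 in GMPs. Erythroblast markers were also lower in aged GMPs (454 and 399.7 in young against 40.2 and 13.5 in aged) and aged CLPs (903 and 946 against 266 and 102). Their part in the differences described for these fractions was not tested. Levels of the 77 genes and sums over gene sets are on another scale, CPM after normalisation by TMM, the trimmed mean of M values.

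In young cells, the summed levels of the mitochondrial ribosomal protein genes lay between 3154 and 3715 CPM in HSCs and all MPPs and stood higher in the committed progenitors. Not every pair of these groups overlapped, since both MPP3 libraries lay above both MPP1 libraries. Summed over the 77 genes, young HSC libraries had 3377 and 3715 CPM, MPP1 3154 and 3406, MPP2 3391 and 3593, MPP3 3552 and 3549, and MPP4 3221 and 3704. CLPs reached 4345 and 4418 CPM, GMPs 6495 and 6033, and MEPs 7174 and 7029, so that the MEP mean was 2.17 times the MPP1 mean. In the order of young means (MPP1, MPP4, MPP2, HSCs, MPP3, CLPs, GMPs, MEPs), libraries of neighbours overlapped up to MPP3, and CLPs, GMPs and MEPs each lay above all libraries before them.

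**Figure D1:**
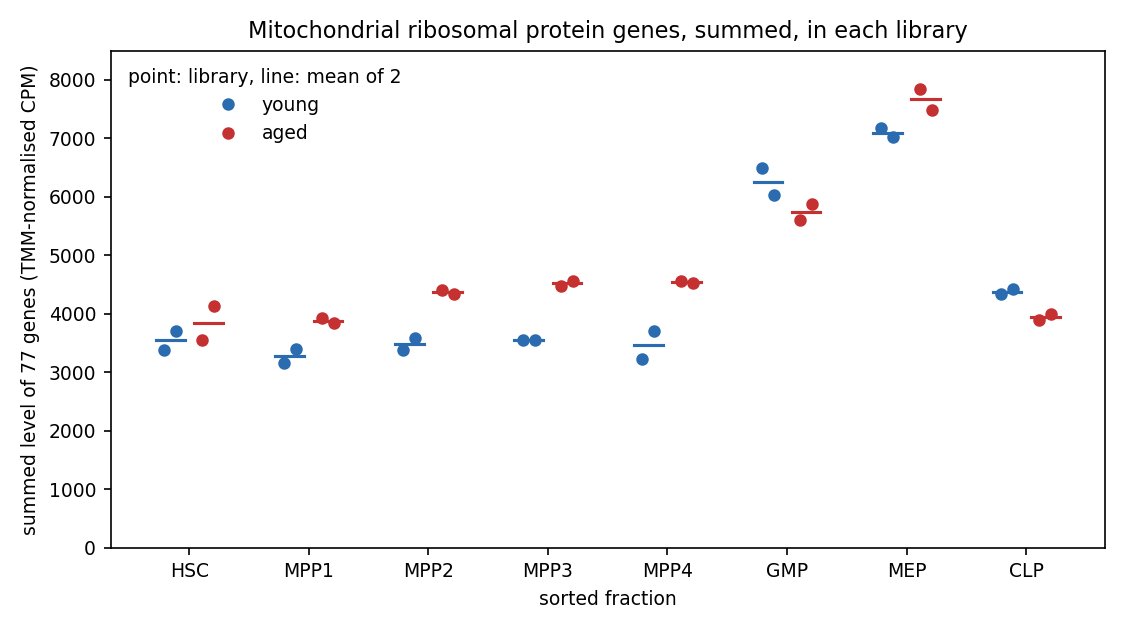
Summed level of the 77 mitochondrial ribosomal protein genes (vertical axis, TMM-normalised CPM) in each of 32 libraries by sorted fraction (horizontal axis). Blue points are young and red points aged libraries and lines are means of 2; aged points lie above young points without overlap in MPP1 to MPP4 and MEPs, and below them in GMPs and CLPs.

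Against young HSCs, 70 of the 77 genes were higher and 2 lower in young GMPs at a Benjamini-Hochberg adjusted p under 0.01 (edgeR quasi-likelihood test, the threshold for every call here), where 31.8% of all genes tested were called higher and 32.8% lower. In young MEPs 70 were higher and 0 lower (29.7% and 39% of all genes), and in young CLPs 35 higher and 5 lower (29.2% and 28.1%). Median log2 fold changes of the 77 were 0.81 in GMPs, 0.98 in MEPs and 0.29 in CLPs, and those of all genes tested were -0.043, -0.24 and 0. Against the same HSC libraries, 1 gene was higher and 2 were lower in MPP1 (9.1% and 5.67% of all genes), and 8 were higher and 9 lower in the mean of MPP2 to MPP4 (20.7% and 20.4%). These 5 comparisons share the young HSC libraries. Without young HSC replicate 1 the calls in MPP1 became 8, all lower, and those in CLPs 19 higher and 6 lower. Without young HSC replicate 2 the calls in MPP2 to MPP4 fell to 4 higher and 4 lower. With offsets for GC content and transcript length the median fell to 0.51 in GMPs and 0.70 in MEPs. With DESeq2 size factors in place of TMM the median of all genes in GMPs against HSCs moved by -0.11, and changes there are relative to that centre.

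The genes differed in how they ran through the young fractions. Mrpl18, the counterpart of bacterial L18 (ENSMUSG00000057388.9, chromosome 17, 12911349 to 12916345, minus strand), had 49.4 and 53.2 CPM in young HSCs, 66.8 and 68.4 in MPP1, 90.7 and 93.9 in MPP2 and 82.6 and 83.6 in MPP3. It had 76.1 and 86.98 in MPP4, 139 and 150.3 in CLPs, 211 and 189.5 in GMPs and 253 and 228 in MEPs. Both libraries of each other fraction stood above both HSC libraries, and the gene was called higher in all 5 comparisons, from MPP1 (log2 fold change 0.40, SE 0.082, adjusted p 0.00107) to MEPs (log2 fold change 2.23, SE 0.083, adjusted p 3.97e-16). Mrps22, a small subunit protein without a bacterial counterpart (ENSMUSG00000032459.9, chromosome 9, 98588730 to 98601660, minus strand), rose most of all 77 in MEPs, from 14.7 and 14.8 CPM in HSCs to 94.8 and 79.7 (log2 fold change 2.57, SE 0.13, adjusted p 4.01e-14). Mrpl37, a mitochondria-specific protein of the large subunit (ENSMUSG00000028622.11, chromosome 4, 107055874 to 107066868, minus strand), was also higher in MEPs (log2 fold change 1.53, SE 0.071, adjusted p 1.54e-14), GMPs (log2 fold change 1.25, SE 0.071, adjusted p 7.48e-13) and CLPs (log2 fold change 0.90, SE 0.071, adjusted p 3.01e-10), with 47.8 and 50.9 CPM in HSCs against 96.5 and 87.2 in CLPs.

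Mrpl52, a mitochondria-specific large subunit protein (ENSMUSG00000010406.12, chromosome 14, 54426909 to 54429756, plus strand), ran the other way except in MEPs. It had 30.4 and 36.7 CPM in young HSCs, 20.9 and 19.4 in CLPs, 13.9 and 14.9 in GMPs and 85.8 and 85.9 in MEPs, with no overlap between any of these groups. It was lower than in HSCs in MPP1 (log2 fold change -0.54, SE 0.13, adjusted p 0.00291), the mean of MPP2 to MPP4 (log2 fold change -0.56, SE 0.10, adjusted p 7.04e-05), CLPs (log2 fold change -0.73, SE 0.13, adjusted p 3.41e-05) and GMPs (log2 fold change -1.23, SE 0.13, adjusted p 2.52e-08), and higher in MEPs (log2 fold change 1.35, SE 0.12, adjusted p 1.41e-09). Mrpl23, the counterpart of bacterial L23 at the exit of the peptide tunnel, fell from 66.8 and 76.1 CPM in HSCs to 46.8 and 52.01 in MPP1 (log2 fold change -0.53, SE 0.11, adjusted p 0.000994). Mrpl44, which has an RNase III fold, stood at 122 and 109.9 CPM in GMPs against 55.7 and 61.3 in HSCs but fell to 40.9 and 38.1 in CLPs (log2 fold change -0.57, SE 0.086, adjusted p 5.24e-06), and its exons overlap Wdfy1. Mrps6, counterpart of bacterial S6, was the other gene called lower in GMPs (log2 fold change -0.40, SE 0.13, adjusted p 0.00841), with 35.5 and 37.2 CPM in HSCs and 31.1 and 23.98 in GMPs, and this call was lost without young GMP replicate 2 (adjusted p 0.074). Without replicate 2 of young HSCs, or replicate 1 of young MPP1, the calls of Mrpl23 and Mrpl52 in MPP1 were lost, and without replicate 1 of young HSCs or replicate 2 of young MPP1 that of Mrpl18.

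Per kilobase of the longest RefSeq-paired transcript and over all 32 libraries, the highest levels were those of Mrpl42 (126 CPM per kb), Mrpl28 (125) and Mrpl33 (121), and the lowest those of Mrpl47 (5.78), Mrps25 (10.1) and Mrps35 (10.7), with a median over the 77 of 42.5 CPM per kb. The 3 lowest genes have annotated transcripts of 3364 to 6073 bases and the 3 highest of 478 to 1068 bases, and the exons of Mrps25 and Mrpl47 overlap other genes. By mean level, which is not per length, the 77 genes spanned 17.8 to 133 CPM (median 57.5). Aged MEPs were the highest of the 16 groups for 47 of the genes, young MEPs for 16 and young GMPs for 12. Mrpl33, counterpart of bacterial L33, was one of those highest in GMPs, with 135 and 126 CPM in young GMPs against 57.5 and 52.4 in young MEPs. Young MPP1 was the lowest group for 28 and young HSCs for 14 genes.

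With age, many members of the set were called higher in MPP2, MPP3 and MPP4 and none lower. In MPP1, GMPs and CLPs the number called by edgeR with TMM was near or below the share of all genes called in that direction. For MPP1 this depended on the fit. A DESeq2 Wald test called 20 higher there (1070 of 17738 genes) and GC and length offsets 10 (871 of 14154). DESeq2 size factors gave 5 (682 of 14154) and no filter on low counts 3 (561 of 17738). In aged MPP4, 38 of the 77 genes were called higher and 0 lower, where 10.3% of all genes tested were called higher and 6.27% lower. In aged MPP3, 30 were higher and 0 lower (8.14% and 5.79% of all genes), in aged MPP2, 19 and 0 (4.49% and 3.31%), and in aged MPP1, 5 and 0 (4.71% and 2.09%). The median log2 fold changes of the 77 in MPP1 to MPP4 were, in order, 0.24, 0.31, 0.35 and 0.39, a median fold of 1.185 to 1.315, while the median of all genes tested lay between -0.040 and -0.0019 in these fractions. The fitted change was above 0 for all 77 genes in each of the 4 MPP fractions, called or not. Of all genes tested, 47.1%, 46.2%, 44.1% and 44.9% were above 0 in MPP1 to MPP4. Across the 4 fractions 43 genes were called higher in at least 1, 18 in at least 3, and Mrpl2, Mrpl12 and Mrps22 in all 4. The matching shares of all genes tested were not computed, so these counts across fractions stand without a background. None of these 3 genes kept all 4 calls under each of 11 alternatives, and in MPP1 the call was lost under 5 for Mrpl2, 5 for Mrpl12 and 3 for Mrps22. In MPP2 it was lost under 1, 4 and 6 of them in the same order, in MPP3 under 1, 0 and 0, and in MPP4 under 1, 0 and 4.

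**Figure D2:**
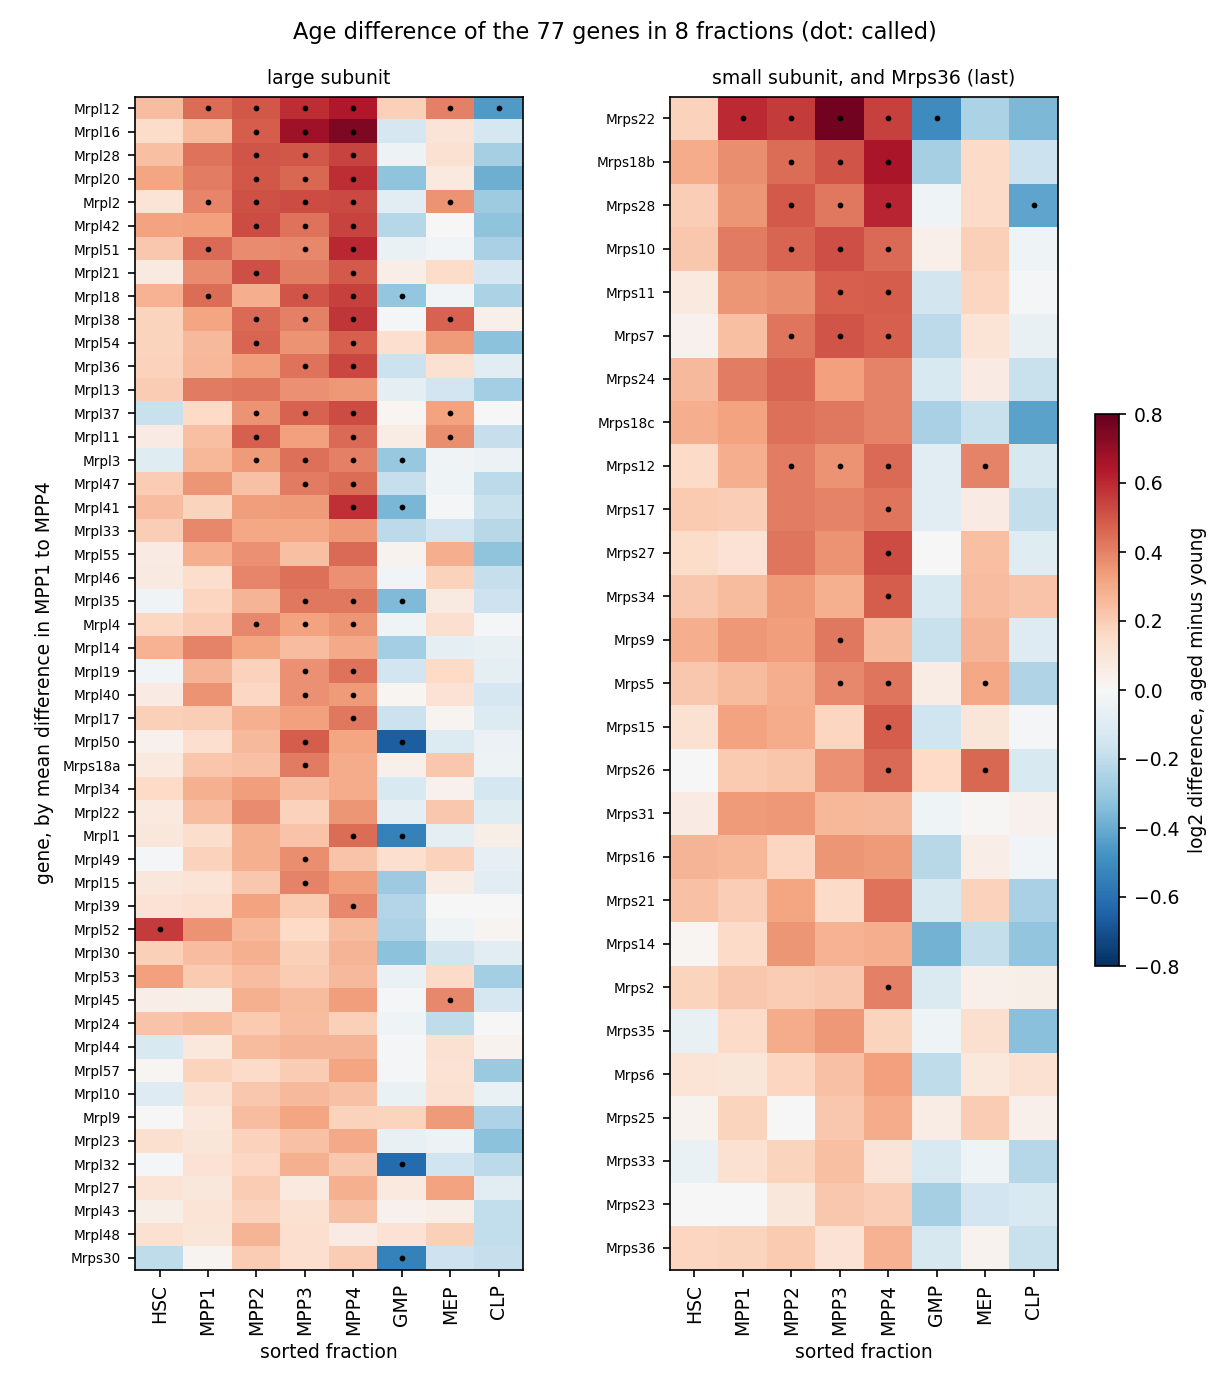
Log2 difference of aged minus young cells (colour) for each of the 77 genes (rows, by mean difference in MPP1 to MPP4 within a subunit) in the 8 fractions (columns), with a dot where the gene was called. The columns MPP1 to MPP4 hold values above 0 for all genes, whereas dots in GMPs and CLPs mark lower values.

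The summed level was read in each library. Aged MPP1 libraries had 3925 and 3838 CPM against 3154 and 3406 in young ones, aged MPP2 4402 and 4340 against 3391 and 3593, aged MPP3 4477 and 4571 against 3552 and 3549, and aged MPP4 4556 and 4535 against 3221 and 3704. Young and aged libraries did not overlap in any of the 4, and the aged mean was 1.18, 1.25, 1.27 and 1.31 times the young mean. Gene by gene, both aged libraries lay above both young libraries for 63 genes of the set in MPP1, 76 each in MPP2 and MPP3, and 73 in MPP4, where 31.1%, 32.3%, 29.5% and 29.8% of all genes tested did. Sums over the large and the small subunit were both higher, at 1.31 times the young level for each in MPP4 and 1.28 and 1.27 times in MPP3. Of the 46 genes with a bacterial counterpart, 25 were called higher in aged MPP4, and of the 30 without one 13, where 10.3% of all genes tested were. The 53 genes whose exons overlap no other gene had a median of 0.40 in MPP4 with 27 called, against 0.38 and 11 for the 24 that overlap. The summed level of 6 HSC markers was also lower with age in all 4 MPP fractions, at 852 and 786 plain CPM in young against 289 and 281 in aged MPP4. It was 1848 and 1795 against 1278 and 1261 in MPP1, 1074 and 1075 against 678 and 682 in MPP2, and 1137 and 1129 against 546 and 516 in MPP3. The part of these markers in the differences was not tested.

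**Figure D3:**
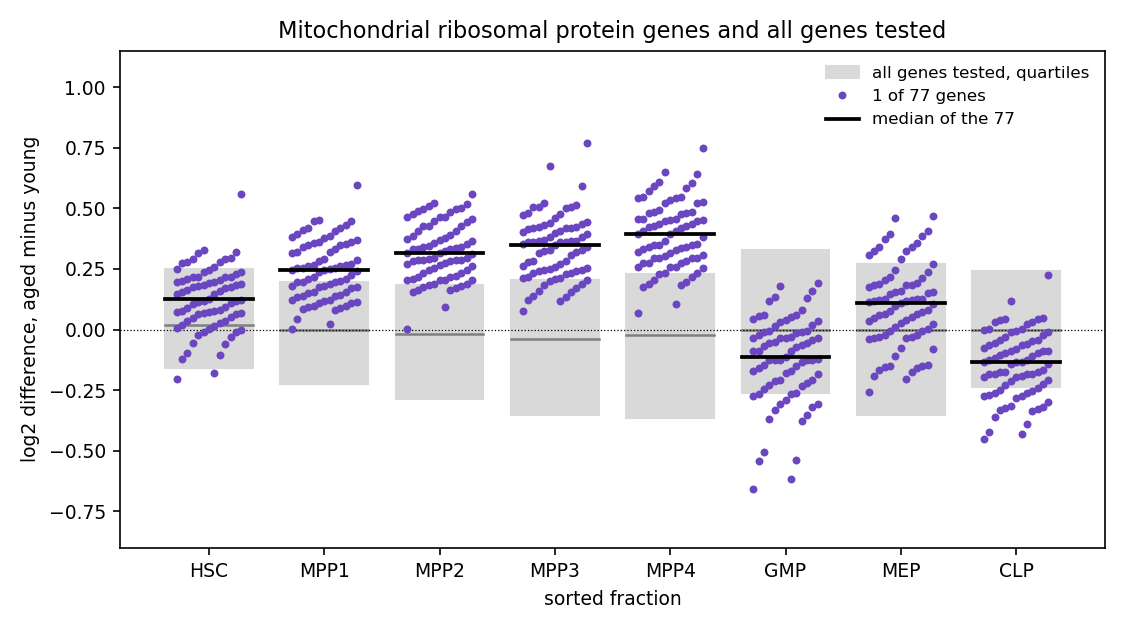
Log2 difference of aged minus young cells (vertical axis) in each fraction (horizontal axis) for the 77 genes (purple points, spread sideways for legibility) with their median (black line). Grey boxes span the quartiles of all 14154 genes tested with their median as a grey line; the black lines lie above the grey boxes in MPP1 to MPP4 and inside them in the other 4 fractions.

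Mrps22 had the largest rise of the set in MPP1, MPP2 and MPP3. Its levels in MPP3 were 21.4 and 21.1 CPM in the young and 37.8 and 34.8 CPM in the aged libraries (log2 fold change 0.77, SE 0.12, adjusted p 9.66e-05). In MPP1 they were 16.8 and 19.6 CPM in the young and 27.3 and 27.9 CPM in the aged libraries (log2 fold change 0.60, SE 0.12, adjusted p 0.00229), and in both fractions the aged libraries lay above the young ones. In MPP4 young replicate 2 stood closer to the aged libraries, with 19.1 and 25.9 CPM in the young and 32.05 and 33.4 CPM in the aged libraries (log2 fold change 0.54, SE 0.12, adjusted p 0.00199).

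Mrpl12, the stalk protein that recruits translation factors to the large subunit (ENSMUSG00000039640.7, chromosome 11, 120484613 to 120489065, plus strand), was called higher in 5 fractions and lower in CLPs. Its levels were 72.97 and 77 CPM in the young and 106 and 120.0 CPM in the aged libraries of MPP3 (log2 fold change 0.59, SE 0.11, adjusted p 0.000419) and 65.8 and 78.9 CPM in the young and 112 and 114 CPM in the aged libraries of MPP4 (log2 fold change 0.64, SE 0.11, adjusted p 0.000146). In MEPs they were 234 and 196 CPM in the young and 272 and 296 CPM in the aged libraries (log2 fold change 0.41, SE 0.11, adjusted p 0.00537). No aged library overlapped a young one in these 3 fractions, although the MEP call was lost under 8 of 11 alternatives. Mrpl2, counterpart of bacterial L2 near the peptidyl transferase centre (ENSMUSG00000002767.13, chromosome 17, 46646229 to 46650139, plus strand), was the other gene called higher in 5 fractions, with 46.7 and 49.4 CPM in the young and 67.4 and 69.6 CPM in the aged libraries of MPP2 (log2 fold change 0.51, SE 0.093, adjusted p 0.000777).

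Mrpl16, counterpart of bacterial L16 (ENSMUSG00000024683.6, chromosome 19, 11770391 to 11774960, plus strand), had the smallest adjusted p of the set in MPP3 and MPP4. It stood at 31.99 and 32.6 CPM in the young and 55.9 and 52.6 CPM in the aged libraries of MPP4 (log2 fold change 0.75, SE 0.089, adjusted p 2.88e-06) and at 41.5 and 36.1 CPM in the young and 64.8 and 59.3 CPM in the aged libraries of MPP3 (log2 fold change 0.68, SE 0.088, adjusted p 1.23e-05). Aged libraries were the higher ones without overlap in both. In MPP1 its log2 fold change was 0.25 (adjusted p 0.0635), and that in HSCs was 0.15.

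Mrpl37 had 51.9 and 54.9 CPM in the young and 76.4 and 76.8 CPM in the aged libraries of MPP4 (log2 fold change 0.52, SE 0.071, adjusted p 1.25e-05). Mrpl18 had 76.1 and 86.98 CPM in the young and 118 and 119.8 CPM in the aged libraries of the same fraction (log2 fold change 0.55, SE 0.08, adjusted p 3.1e-05). Neither overlapped between ages, and both kept the call under each alternative run, as did Mrpl12 and Mrpl16 in MPP4 and Mrps22, Mrpl3, Mrpl12, Mrpl16 and Mrpl18 in MPP3. Mrpl42, a mitochondria-specific protein of the large subunit, had the smallest adjusted p in MPP2 with 57.3 and 64.6 CPM in the young and 86.6 and 88.2 CPM in the aged libraries (log2 fold change 0.52, SE 0.087, adjusted p 0.000354). Mrpl51, of the same kind, was called in MPP1 with 42.6 and 45.98 CPM in the young and 60.5 and 60.6 CPM in the aged libraries (log2 fold change 0.45, SE 0.10, adjusted p 0.00323). In both comparisons the aged libraries lay above the young ones without overlap, and Mir3098 lies within the exons of Mrpl51.

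The number of calls depended on single libraries. Leaving out 1 library leaves a group with 1 sample, whose spread is then taken from the other groups. Calls in MPP1 fell to 0 without young replicate 1, 2 without young replicate 2, 1 without aged replicate 1 and 3 without aged replicate 2. In MPP2 they fell to 0, 7, 5 and 6 in the same order, and in MPP3 to 18, 18, 24 and 16. In MPP4 there were 9 without young replicate 1, whose sum of 3221 CPM was the lower of the young duplicates, and 42, 29 and 25 without the other 3. With 1 library left out, medians stayed between 0.20 and 0.50 in the 4 fractions. Fits of the 4 libraries of one fraction called 17, 46, 10 and 11 genes in MPP1 to MPP4, all higher. In these fits 1377 of 12644, 1749 of 12553, 727 of 12605 and 772 of 12312 of all genes were called higher.

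In aged HSCs, only Mrpl52 was called higher and no gene lower, where 3.74% of all genes were higher and 1.66% lower. Its levels were 30.4 and 36.7 CPM in the young and 43.8 and 55.2 CPM in the aged libraries (log2 fold change 0.56, SE 0.12, adjusted p 0.00439), with both aged libraries above both young, as for 25.4% of all genes tested. This call was lost without young replicate 1 (adjusted p 0.1), without aged replicate 2 (0.0827) and in the fit of the 4 HSC libraries (0.131). Over the 77 genes the median was 0.13 against 0.020 for all genes, and 65 were above 0, where 52.75% of all genes tested were. The summed levels of 3377 and 3715 CPM in young and 3562 and 4132 in aged HSCs overlapped, and without aged replicate 2 the median was 0.0016.

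In aged GMPs, 9 genes were called lower and 0 higher, where 8.97% of all genes were lower and 9.93% higher. The summed level was 6495 and 6033 CPM in young and 5609 and 5872 in aged libraries, without overlap, and the median log2 fold change was -0.11 against 0 for all genes. This median was -0.059 without young replicate 1, -0.065 without aged replicate 1 and -0.045 with GC and length offsets, where 31 genes were above 0 instead of 17. Of all genes tested, 48.2% were above 0 with these offsets and 47.1% without. Mrpl50, a mitochondria-specific large subunit protein (ENSMUSG00000044018.3, chromosome 4, 49512596 to 49521093, minus strand), fell most, from 96.04 and 79.5 to 53.3 and 57.9 CPM (log2 fold change -0.66, SE 0.10, adjusted p 5.18e-05). Mrps30, of the large subunit in spite of its name (ENSMUSG00000021731.10, chromosome 13, 118378381 to 118387252, minus strand), fell from 119 and 112 to 79.6 and 79.1 CPM (log2 fold change -0.54, SE 0.086, adjusted p 7.01e-05). These 2 calls held under each alternative run. Mrpl1, whose bacterial counterpart forms the stalk at the exit site of tRNA, fell from 64.4 and 58.05 to 43.2 and 41.05 CPM (log2 fold change -0.54, SE 0.093, adjusted p 0.000163), a call lost with GC and length offsets (adjusted p 0.0281).

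The others called lower in GMPs were Mrps22 (-0.51), Mrpl41 (-0.37), Mrpl35 (-0.35), Mrpl18 (-0.31), Mrpl3 (-0.31) and Mrpl32 (-0.62), the last named because it completes the count. Of the 9 genes, Mrps30 and Mrpl32 were called in no aged MPP fraction, and the other 7 were called higher in at least 1. With GC and length offsets only 3 genes were called lower in GMPs, where 1016 of 14154 genes were. Without young replicate 1 or aged replicate 1 there were 4. In total 9 genes had calls in both directions across fractions, namely these 7 through GMPs, and Mrpl12 and Mrps28 through CLPs. The share of all genes called in both directions was not computed. Of 11 alternatives, 6 lost the lower GMP call of Mrps22, Mrpl18 and Mrpl35, 5 that of Mrpl3 and Mrpl41, 3 that of Mrpl1 and 0 that of Mrpl50. In CLPs the lower call was lost under 5 for Mrpl12 and 7 for Mrps28.

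In aged CLPs 2 genes were called lower and 0 higher, where 4.73% of all genes were lower and 5.71% higher. Mrpl12 fell from 122 and 121 to 90.5 and 87.5 CPM (log2 fold change -0.45, SE 0.11, adjusted p 0.00535). Mrps28, the small subunit counterpart of bacterial S1, fell from 51.4 and 51.05 to 36.9 and 39.5 CPM (log2 fold change -0.42, SE 0.11, adjusted p 0.00764). Both groups were apart without overlap, but each call was lost when any 1 of the 4 CLP libraries was left out, and no gene was then called except 1 without aged replicate 2. Both aged CLP libraries lay below both young ones for 30.4% of all genes tested. The summed level was 4345 and 4418 CPM in young and 3899 and 3995 in aged CLPs, with a median of -0.13 over the 77 genes and 66 genes below 0. The other 11 genes were above 0, where 47.6% of all genes tested were. With GC and length offsets the median was -0.070 with 24 genes above 0, and 1 gene was called higher and 1 lower. With these offsets 47.5% of all genes were above 0, and of 14154 genes 943 were called higher and 831 lower.

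In aged MEPs 9 genes were called higher and 0 lower, close to the 9.08% of all genes called higher, with 11.7% called lower. Mrpl38, a mitochondria-specific large subunit protein (ENSMUSG00000020775.13, chromosome 11, 116131817 to 116138868, minus strand), stood at 112 and 109 CPM in the young and 152 and 154 CPM in the aged libraries (log2 fold change 0.47, SE 0.087, adjusted p 0.000272). Mrps12, counterpart of the bacterial decoding protein S12 (ENSMUSG00000045948.8, chromosome 7, 28739641 to 28741820, minus strand), stood at 56.8 and 56.99 CPM in the young and 74.96 and 74.7 CPM in the aged libraries (log2 fold change 0.40, SE 0.089, adjusted p 0.00166). Mrps26, whose exons overlap an antisense gene by 8 bases, rose from 98.7 and 115 to 148 and 146 CPM (log2 fold change 0.46, SE 0.10, adjusted p 0.00129). Mrpl37 rose there from 147 and 138 to 183 and 174 CPM (log2 fold change 0.32, SE 0.068, adjusted p 0.000984). For each of these 4 called genes both aged libraries lay above both young ones, as they did for 28.4% of all genes tested. Mrps22 went the other way without being called, from 94.8 and 79.7 to 72.5 and 73.6 CPM (log2 fold change -0.26, adjusted p 0.0908). The summed level of 5 MEP markers was 4923 and 4964 plain CPM in young against 6319 and 6079 in aged MEPs, and its part in these differences was not tested. Leaving out any 1 MEP library left 1 to 3 calls, 4 remained with DESeq2 size factors, 2 without the filter on low counts and 0 in the fit of the 4 MEP libraries.

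**Figure D4:**
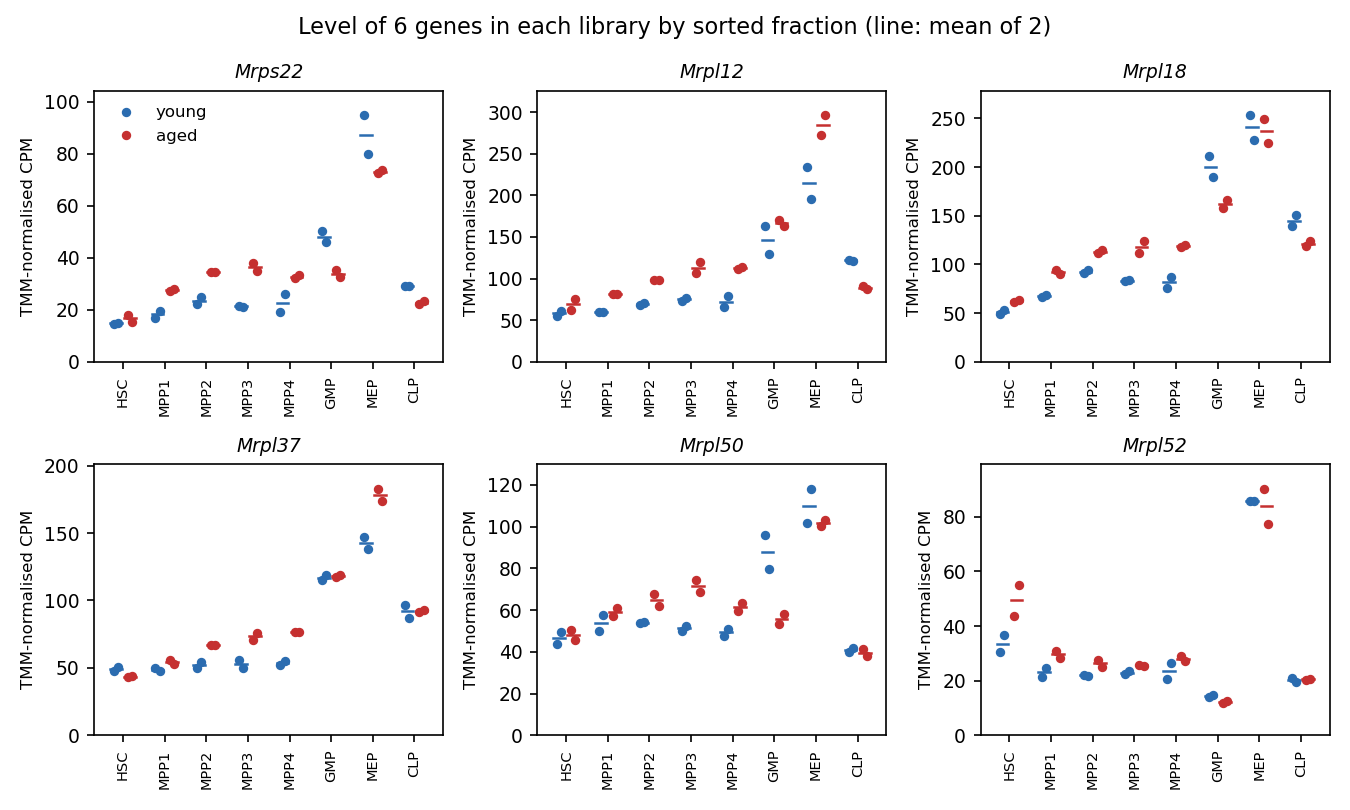
Level (vertical axes, TMM-normalised CPM from 0) of Mrps22, Mrpl12, Mrpl18, Mrpl37, Mrpl50 and Mrpl52 in each library by sorted fraction (horizontal axes), young in blue and aged in red with lines at the mean of 2. Aged points of Mrps22, Mrpl12 and Mrpl18 stand above young points in MPP1 to MPP4, those of Mrpl50 stand below in GMPs, and Mrpl52 is highest in MEPs at both ages.

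Whether the age difference itself differed between fractions was tested in the same fit, as the difference in HSCs, GMPs, MEPs or CLPs minus the mean difference in MPP1 to MPP4. For GMPs, 43 of the 77 genes had a lower age difference than in MPPs and 0 a higher one, where 13.8% of all genes were lower and 12.7% higher. For CLPs, 46 were lower and 0 higher (12.3% and 10.3% of all genes). For MEPs, 13 were lower and 0 higher, near the 14.7% of all genes called lower (10.2% higher), and for HSCs 2 were lower and 0 higher (1.1% and 1.91%). Median differences were -0.45 for GMPs, -0.44 for CLPs, -0.23 for MEPs and -0.20 for HSCs on the log2 scale, against 0.048, 0.039, -0.027 and 0.046 for all genes. All 77 genes lay below 0 in the comparisons of GMPs and of CLPs with MPPs, where 52.9% and 52.7% of all genes tested lay above 0. The 4 comparisons share the MPP libraries. Single libraries moved the counts, which fell to 28 for GMPs without young GMP replicate 1 or aged GMP replicate 1, and for MEPs ranged from 7 without aged MEP replicate 2 to 29 without young MPP4 replicate 2. For HSCs the count was 1 without young HSC replicate 2 and 12 without aged HSC replicate 2. With GC and length offsets the median for GMPs was -0.29.

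The largest of these differences in GMPs was that of Mrps22 (difference -1.12, SE 0.13, adjusted p 1.35e-06), followed by Mrpl50 (difference -0.96, SE 0.11, adjusted p 1.21e-06), and Mrpl18 had the smallest adjusted p (difference -0.76, SE 0.088, adjusted p 1.06e-06). In CLPs Mrpl12 differed most and had the smallest adjusted p (difference -0.996, SE 0.12, adjusted p 2.15e-06), and Mrpl42 (difference -0.78, SE 0.10, adjusted p 2.95e-06) and Mrpl18 (difference -0.70, SE 0.089, adjusted p 3.3e-06) followed it by adjusted p. In MEPs Mrps22 differed most (difference -0.87, SE 0.13, adjusted p 2.08e-05). In HSCs the 2 called genes were Mrpl37 (difference -0.56, SE 0.08, adjusted p 0.000182), with 47.8 and 50.9 CPM in the young and 43.4 and 43.8 CPM in the aged libraries, and Mrpl3, counterpart of bacterial L3 (difference -0.46, SE 0.086, adjusted p 0.00209), with 82.2 and 92.5 CPM in the young and 78.7 and 84.8 CPM in the aged libraries. The aged HSC libraries lay below the young ones for Mrpl37, as for 20.2% of all genes tested, and overlapped them for Mrpl3, while both genes rose in aged MPP2 to MPP4.

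The paralogs Mrps18b and Mrps18c belong to the small subunit and Mrps18a to the large one. In MPP4, Mrps18b stood at 37.1 and 39.5 CPM in the young and 58.97 and 61.2 CPM in the aged libraries (log2 fold change 0.65, SE 0.10, adjusted p 8.1e-05). Mrps18a had 41.6 and 48.02 CPM in the young and 53.5 and 56.3 CPM in the aged libraries of MPP4 (log2 fold change 0.29, adjusted p 0.0586), and Mrps18c 23.2 and 29.2 CPM in the young and 36.6 and 32.2 CPM in the aged libraries (log2 fold change 0.40, adjusted p 0.0174). All 3 had both aged libraries above both young ones, as did 29.8% of all genes tested in MPP4. Only Mrps18b passed the threshold in MPP4 and only Mrps18a and Mrps18b in MPP3. Differences among the paralogs were not tested. Mrps18b was also the one with the widest span among young fractions, from a mean of 32.8 CPM in MPP1 to 137 and 134 CPM in MEPs. It was called higher in MEPs than in HSCs, which had 36.3 and 39.4 CPM (log2 fold change 1.84, SE 0.10, adjusted p 5.23e-13). Mrps36, no longer counted as a ribosomal protein, was called in none of the 8 age comparisons, with log2 fold changes between -0.18 in CLPs and 0.28 in MPP4. It was higher in young MEPs than in young HSCs all the same (log2 fold change 1.67, SE 0.13, adjusted p 1.62e-10).

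Members with other symbols and the genes that serve the mitochondrial ribosome were read from lists chosen with earlier results of these data known. Of 6 further proteins of the mitochondrial ribosome, 3 were called higher in aged MPP4 and 2 in each of MPP1 and MPP2, with a median of 0.42 in MPP4. Of all genes, 10.3%, 4.71% and 4.49% were called higher in these fractions. Among the 6 proteins, Chchd1 rose in MPP3 by 0.65 (adjusted p 0.000459) and Gadd45gip1 in MPP4 by 0.38 (adjusted p 0.00192) on the log2 scale, and Ptcd3 had a log2 fold change in GMPs of -0.44 (adjusted p 0.00523). Of 13 mitochondrial translation factors, 3 were higher in aged MPP4 (10.3% of all genes) and 1 was lower in aged GMPs (8.97% of all genes). Tufm, the elongation factor that delivers aminoacyl-tRNA, was the gene in both counts, with log2 fold changes of 0.77 (adjusted p 2.44e-07) in MPP4 and -0.31 (adjusted p 0.00315) in GMPs. Gfm1, the elongation factor for translocation, had 0.57 (adjusted p 0.000192) in MPP4.

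Of 20 mitochondrial tRNA synthetases, 5 were higher in aged MPP3 (8.14% of all genes), 5 in MPP4 (10.3%) and 6 in MEPs (9.08%), with 0 lower in these. Aars2, for alanine, had log2 fold changes of 0.81 (adjusted p 6.32e-06) in MPP4 and 0.84 (adjusted p 1.91e-06) in MEPs, and Tars2, for threonine, 0.56 (adjusted p 8.4e-06) in MPP4. Lars2, for leucine, fell in aged CLPs with a log2 fold change of -1.01 (adjusted p 0.00202), whereas Wars2, for tryptophan, rose there (log2 fold change 0.87, adjusted p 0.000103). Of 23 ribosome assembly factors, 4 were higher in aged MPP4 (10.3% of all genes) and 3 lower in aged GMPs (8.97%). In aged MEPs 5 were higher and 2 lower (9.08% and 11.7% of all genes). Fastkd2, which acts in assembly of the large subunit, was higher in one and lower in the other of these fractions, with log2 fold changes of 0.57 (adjusted p 9.05e-05) in MPP4 and -0.54 (adjusted p 0.000135) in GMPs.

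Of 12 genes of mitochondrial transcription and RNA turnover, 3 were higher in aged MPP3 (8.14% of all genes), 3 in MPP4 (10.3%) and 1 in GMPs, where 4 were lower (8.97%). In aged MEPs 2 were higher and 2 lower (9.08% and 11.7% of all genes). Tfam, which packages and transcribes mitochondrial DNA, fell in aged GMPs (log2 fold change -0.60, adjusted p 3.36e-05), as did its partner Tfb2m (log2 fold change -0.60, adjusted p 8.09e-06), while the RNA polymerase Polrmt was higher there (log2 fold change 0.49, adjusted p 0.00718). Lrpprc, which stabilises mitochondrial mRNA, rose in MPP4 (log2 fold change 0.72, adjusted p 2.49e-05) and fell in MEPs (log2 fold change -0.41, adjusted p 0.00363).

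Nuclear genes of oxidative phosphorylation, many of which work beside the products of the mitochondrial ribosome, had 49 of 79 called higher and 1 lower in aged MPP4 (10.3% and 6.27% of all genes), with a median of 0.42, and 16 lower in aged GMPs (8.97% of all genes) with a median of -0.18. Proteins of the cytosolic ribosome gave other values. Of 79 tested, 4 were higher and 1 lower in aged MPP4 (median 0.061), below the shares of all genes, and 12 were lower in aged GMPs (median -0.29). In MPP3 their mean summed CPM in aged cells was 1.025 times that in young cells and the libraries overlapped, where the ratio of the 77 mitochondrial ribosomal protein genes was 1.27. This was the smallest cytosolic ratio of the MPPs. It was 1.063 in MPP1 and 1.106 in MPP2, without overlap of libraries, and 1.051 in MPP4 with overlap. The ratios of the 77 genes there were 1.18, 1.25 and 1.31. In young MPP2 to MPP4 against HSCs, 53 cytosolic ribosomal protein genes were called lower and 0 higher, against 9 lower and 8 higher of the mitochondrial set. Of all genes tested, 20.4% were called lower and 20.7% higher there, and the mitochondrial set lay below both shares.

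**Figure D5:**
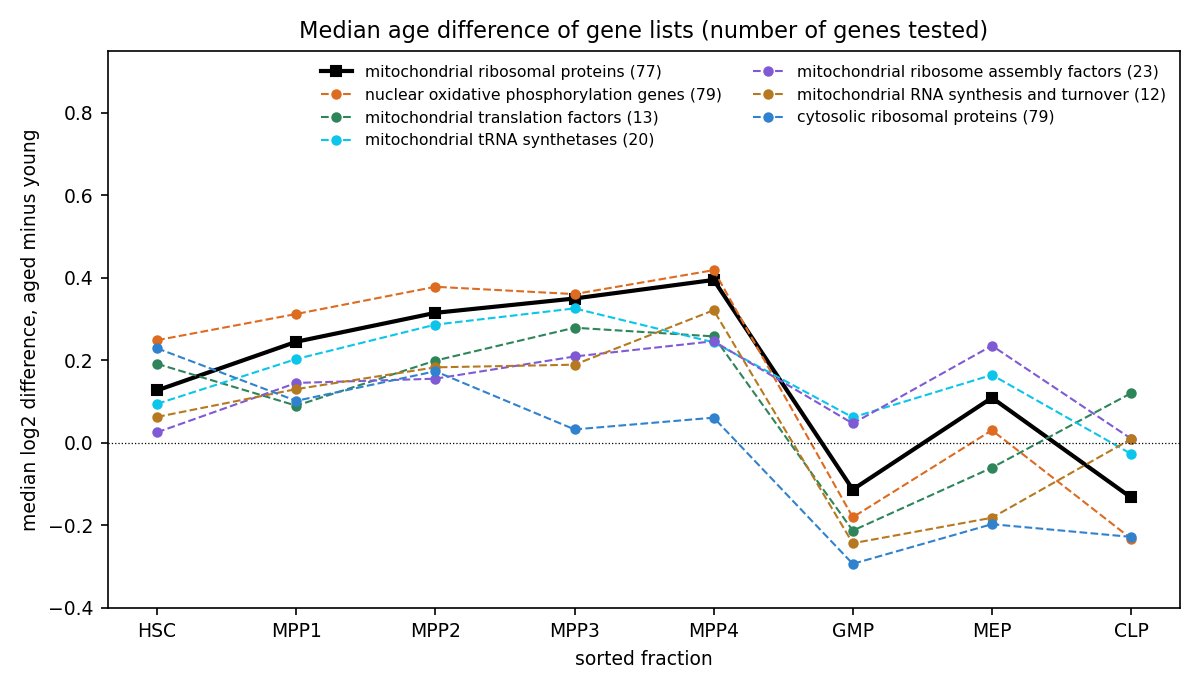
Median log2 difference of aged minus young cells (vertical axis) in each fraction (horizontal axis) for the 77 mitochondrial ribosomal protein genes (black squares) and 6 other gene lists (dashed lines, number of genes tested in parentheses). The black line and that of nuclear oxidative phosphorylation genes run between 0.24 and 0.42 in MPP1 to MPP4, whereas cytosolic ribosomal proteins reach 0.17 at most there.

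The promoters of the genes were read in windows of 250 bases before to 50 bases after the start listed by RefSeq (GRCm38.p6). A window was given for 68 of the 77 genes, and none for Mrpl4, Mrpl13, Mrpl15, Mrpl19, Mrpl38, Mrpl54, Mrps28, Mrps34 and Mrps35. Each window was searched on both strands for exact cores of 3 factors known to act on nuclear genes of mitochondria. The ETS core CCGGAAG, as bound by GABP, lay in 24 windows (35.3%, against 17.1% of the other genes tested), the YY1 core AAGATGGC in 12 (17.6% against 4.42%) and the NRF1 core CGCATGCG in 7 (10.3% against 3.70%). At least 1 of the 3 lay in 36 windows (52.9% against 23.4%), 2 in 7 windows and all 3 in 0. Other elements were as frequent or less frequent than elsewhere, with CCAAT in 39.7% against 38.5%, the GC box GGGCGG in 34 of 68 windows against 62.8%, the E-box CACGTG in 7.35% against 10.1% and TATAAA in 5.88% against 7.19%. The windows had a mean GC content of 59.0%, against 60.5% for the other genes. A match describes letters in the window and no binding was measured.

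Age differences of genes with and without a core were set side by side without a test. Of 36 genes with at least 1 core, 17 were called higher in aged MPP4 (median 0.40), and of 32 without, 15 (median 0.35), where 10.3% of all genes tested were. The 12 genes with a YY1 core had 9 called higher in aged MPP3 (median 0.42), where 8.14% of all genes tested were. This last group was picked out after its values were seen.

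Windows of the 3 genes called higher in all 4 aged MPP fractions are shown because these genes were called in the most MPP fractions. Only that of Mrps22 holds one of the 3 cores, an ETS core in capitals. They lie at chr17:46645971-46646270, plus strand (Mrpl2), chr11:120484387-120484686, plus strand (Mrpl12) and chr9:98601630-98601929, minus strand (Mrps22), and are written 5′ to 3′ along the gene. RefSeq lists 3 starts for Mrpl2, of which the window takes 1.
Mrpl2: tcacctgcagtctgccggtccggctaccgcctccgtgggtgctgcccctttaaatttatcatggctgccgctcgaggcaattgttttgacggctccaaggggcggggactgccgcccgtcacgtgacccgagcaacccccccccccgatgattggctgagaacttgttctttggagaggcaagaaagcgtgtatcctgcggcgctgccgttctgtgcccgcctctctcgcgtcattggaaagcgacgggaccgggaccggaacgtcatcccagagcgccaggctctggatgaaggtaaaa
Mrpl12: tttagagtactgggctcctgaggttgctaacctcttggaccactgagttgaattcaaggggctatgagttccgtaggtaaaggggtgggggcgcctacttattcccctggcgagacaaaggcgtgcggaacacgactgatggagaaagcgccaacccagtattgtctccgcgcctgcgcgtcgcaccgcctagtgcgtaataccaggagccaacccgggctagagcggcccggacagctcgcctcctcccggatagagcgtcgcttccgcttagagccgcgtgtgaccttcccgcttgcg
Mrps22: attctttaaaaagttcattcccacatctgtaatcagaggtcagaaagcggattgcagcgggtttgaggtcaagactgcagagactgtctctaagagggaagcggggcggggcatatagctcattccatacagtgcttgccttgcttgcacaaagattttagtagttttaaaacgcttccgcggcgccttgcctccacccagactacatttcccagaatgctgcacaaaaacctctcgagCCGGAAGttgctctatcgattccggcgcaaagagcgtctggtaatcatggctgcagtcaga

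The windows of Mrps18a, Mrps18b and Mrps12 are 3 of the 7 that hold 2 cores, shown for the paralogs and the decoding protein described above, with each core in capitals. They lie at chr17:46110754-46111053, plus strand (Mrps18a, ETS and YY1), chr17:35916391-35916690, minus strand (Mrps18b, NRF1 and ETS) and chr7:28741772-28742071, minus strand (Mrps12, ETS and YY1). The ETS core of Mrps18b and the YY1 core of Mrps12 are on the opposite strand and read in reverse complement.
Mrps18a: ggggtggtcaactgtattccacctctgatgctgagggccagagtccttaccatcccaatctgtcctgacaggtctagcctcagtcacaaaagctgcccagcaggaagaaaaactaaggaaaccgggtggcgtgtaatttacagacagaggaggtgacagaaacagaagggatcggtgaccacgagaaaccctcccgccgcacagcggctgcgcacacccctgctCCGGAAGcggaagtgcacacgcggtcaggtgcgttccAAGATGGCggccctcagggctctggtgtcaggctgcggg
Mrps18b: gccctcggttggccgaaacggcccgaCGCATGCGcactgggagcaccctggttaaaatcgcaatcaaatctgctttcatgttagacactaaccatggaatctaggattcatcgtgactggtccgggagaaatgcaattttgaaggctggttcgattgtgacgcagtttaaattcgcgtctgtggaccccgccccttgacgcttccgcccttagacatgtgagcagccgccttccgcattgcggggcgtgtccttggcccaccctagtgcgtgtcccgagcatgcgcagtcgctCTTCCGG
Mrps12: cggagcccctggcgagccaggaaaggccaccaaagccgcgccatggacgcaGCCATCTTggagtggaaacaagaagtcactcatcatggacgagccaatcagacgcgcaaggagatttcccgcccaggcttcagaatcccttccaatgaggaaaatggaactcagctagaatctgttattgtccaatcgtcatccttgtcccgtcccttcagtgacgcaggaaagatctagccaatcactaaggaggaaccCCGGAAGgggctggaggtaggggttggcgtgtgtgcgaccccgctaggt

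Of these 3 genes, Mrps18b had log2 fold changes of 0.45, 0.51 and 0.65 in aged MPP2, MPP3 and MPP4 and Mrps12 of 0.41, 0.36 and 0.45, all called, while Mrps18a was called in MPP3 alone (0.42). The start of Mrps12 faces that of Sars2, the mitochondrial tRNA synthetase for serine, at a distance of 172 bases. In all, 26 of the 77 genes had a protein-coding neighbour that starts within 1000 bases on the other strand. Of these, 15 were called higher in aged MPP4 (median 0.44), against 23 of the other 51 (median 0.35) and 10.3% of all genes tested. The difference between the 2 groups was not tested.

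The factors named for these cores were read at the RNA level after the values of the 77 genes had been seen. In aged MPP4, the log2 fold change was 0.057 (adjusted p 0.654) for Nrf1, -0.0041 (adjusted p 1) for Gabpa and -0.18 (adjusted p 0.298) for Yy1, and none of these 3 genes was called in MPP1 to MPP4. Yy1 was lower in aged GMPs, with a log2 fold change of -0.77 (adjusted p 8.17e-05), and in aged MEPs, with -0.65 (adjusted p 0.000364). Ppargc1b, a coactivator of NRF1, was called higher in aged GMPs (log2 fold change 0.86, adjusted p 0.00541), and Myc, which is known to raise genes of ribosomes and mitochondria, was called in none of the 8 fractions, with log2 fold changes between -0.25 (adjusted p 0.44) in HSCs and 0.19 (adjusted p 0.471) in MPP4.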

How the data were processed

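RNA of 32 sorted samples was sequenced by the study after SMARTer amplification. Per the study's methods, the authors aligned reads to mm10 with TopHat2 2.0.13 and Bowtie2 2.1.0 and made raw gene counts with StringTie, with no use of strand or of molecular identifiers stated. The deposited count table was used. A deposited table of DESeq2-normalised values and 8 tables of the authors' comparisons (fold changes and p-values) were not used. All columns matched a sample by name.

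Genes were kept by filterByExpr over the 16 groups, which left 14154 of 24421. The counts were normalised by TMM (factors 0.8073 to 1.113) and fitted over all 32 libraries with edgeR 4.0.16 (R 4.3.3, limma 3.58.1), a quasi-likelihood model with 16 residual degrees of freedom, and p-values were adjusted by Benjamini-Hochberg over all genes tested, with a threshold of 0.01. Levels of the 77 genes are TMM-normalised CPM, those of sort genes and cell type markers CPM of the plain library total, and a standard error is the log2 fold change divided by the root of F. Totals of 11237384 to 17723245 counts per library limit precision. The scripts were tested on simulated data.

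The 77 genes and all lists were chosen with earlier results of these data known. Genes were named by rule: up to 3 called per direction and comparison by adjusted p, those called the same way in at least 5 fractions or both ways, the 3 highest and 3 lowest per kilobase, and members with a special place (the Mrps18 paralogs, Mrps12, Mrpl12, Mrps30, Mrps36). From other lists, up to 2 called genes per direction and comparison were eligible. Alternatives were DESeq2 1.42.0 size factors and Wald test, no filter, a replicate block, GC and length offsets, fits of 4 libraries and leaving out each library. Duplicate libraries differed by more than counting noise, with 4.59 to 19.0 as chi-square per gene.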

Additional observations from a re-analysis of the deposited data

Results flagged for a closer look

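The age difference in a committed fraction or in HSCs was set against the mean age difference in MPP1 to MPP4, and this difference was tested in the edgeR model over all genes. It was below 0 and past the threshold for 43 of the 77 genes in GMPs, 46 in CLPs, 13 in MEPs and 2 in HSCs, where 13.8%, 12.3%, 14.7% and 1.1% of all genes were called lower. In GMPs the named genes were Mrps22 (log2 difference -1.12), Mrpl50 (-0.96) and Mrpl18 (-0.76). In CLPs they were Mrpl12 (-0.996), Mrpl42 (-0.78) and Mrpl18 (-0.70). In MEPs they were Mrps22 (-0.87), Mrpl18 (-0.47) and Mrpl42 (-0.46), and in HSCs Mrpl37 (-0.56) and Mrpl3 (-0.46).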

How the results depend on the processing

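With duplicates, counts of calls were the least stable values, and the cause of each change was not tested. Median log2 fold changes in aged MPP1 to MPP4 stayed above 0 under every alternative run (lowest 0.17, in MPP1 with the block and offsets). DESeq2 size factors left 4 calls in aged MEPs, and no filter on low counts left 3 in MPP1, 12 in MPP2 and 2 in MEPs. With these size factors 1048 of 14154 genes were called higher in MEPs. Without the filter 561, 451 and 883 of 17738 were higher in MPP1, MPP2 and MEPs. GC and length offsets gave 2 in HSCs, 10 in MPP1, 3 in GMPs, 4 for HSCs minus MPPs and 23 for young MPP2 to MPP4 against HSCs, where 8 higher and 9 lower became 13 higher and 10 lower. Of 14154 genes, these offsets called 727 higher in HSCs and 871 in MPP1, and 1016 lower in GMPs and 284 for HSCs minus MPPs. For young MPP2 to MPP4 against HSCs they called 3032 higher and 2953 lower. With the replicate block added to these offsets there were 10 in MPP1, 3 in GMPs, 4 for HSCs minus MPPs, 6 for young MPP1 against HSCs and again 23 for young MPP2 to MPP4 (13 higher and 10 lower). Of all genes, 881 were then higher in MPP1, and 1009 lower in GMPs and 292 for HSCs minus MPPs. For young MPP1 1367 were higher and 684 lower, and for young MPP2 to MPP4 3028 and 2916. Fits of the 4 libraries of a fraction gave 17, 46, 10 and 11 in MPP1 to MPP4, 3 in GMPs and 0 in each of HSCs, MEPs and CLPs. In MPP2 1749 of 12553 genes were called higher in that fit, against 636 of 14154 with all libraries, and in MPP4 772 of 12312 against 1459. In GMPs 559 of 11553 genes were lower. Higher and lower were 161 and 46 of 12882 in HSCs, 311 and 423 of 11040 in MEPs and 40 and 88 of 12359 in CLPs. The DESeq2 Wald test gave 3 in HSCs, 20 in MPP1, 32 in MPP2, 6 in CLPs, 4 for HSCs minus MPPs, 26 for MEPs minus MPPs and 9 for young MPP1 against HSCs. Of 17738 genes, it called 954, 1070 and 973 higher in HSCs, MPP1 and MPP2, and 995 lower in CLPs. It called 298 lower for HSCs minus MPPs and 2658 for MEPs minus MPPs, and for young MPP1 1604 higher and 1415 lower.

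Leaving out 1 library gave 0 to 4 calls in aged HSCs, then 0 to 3, 0 to 7, 16 to 24 and 9 to 42 in MPP1 to MPP4, 4 to 10 in GMPs, 0 to 1 in CLPs and 1 to 3 in MEPs. Minus MPPs it gave 1 to 12 in HSCs, 28 to 51 in GMPs, 7 to 29 in MEPs and 32 to 58 in CLPs. Against young HSCs it gave 1 to 8 in MPP1, 8 to 17 in MPP2 to MPP4, 55 to 66 in GMPs, 66 to 70 in MEPs and 25 to 30 in CLPs. The balance turned to 1 higher and 0 lower in young MPP1 without replicate 2 of young HSCs or replicate 1 of young MPP1, and to 9 higher and 6 lower (15 calls) in young MPP2 to MPP4 without replicate 1 of young MPP4. Within a fraction, young and aged samples with the same replicate number did not deviate together (correlations -0.0557 to 0.0704). Whether fractions of the same age and replicate number deviated together was not tested. The replicate block changed 1 call of a named gene, Mrps6 in young GMPs (adjusted p 0.0105).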
